A study of Mus musculus with 2 samples.

Results

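Retinoic acid is the vitamin A derivative that drives spermatogonia to differentiate and to enter meiosis. Retinaldehyde dehydrogenases such as Aldh1a1 make it from retinaldehyde, the cellular binding proteins Crabp1 and Crabp2 carry it inside the cell, and heterodimers of a retinoic acid receptor (Rara, Rarb, Rarg) and a retinoid X receptor (Rxra, Rxrb, Rxrg) read it on DNA. These 9 genes were followed in the testes of day 10 mice through every probe set that the platform annotation assigns to 1 of them alone. The rule found 10 probe sets for 8 of the 9 genes, among 8251 genes and 10833 probe sets with exactly 1 gene symbol. No probe set carried the symbol Rarb, and none with several symbols included a gene of the set, so Rarb was not analysed here.

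The series holds 1 array of Mili+/- testes and 1 array of Mili-/- testes, both of polyadenylated RNA. MILI is a Piwi protein of male germ cells encoded by Piwil2, and per the labels germ cells of the mutant stop in early meiotic prophase. Day 10 was chosen because apoptotic cells in the mutant were first seen at day 11. The labels give neither the strain, the number of mice behind an array nor the form of the mutant allele. Each value below is therefore a single measurement, no test across replicates was possible, and a difference describes these 2 arrays. In whole testis, fewer cells of a type and less RNA per cell cannot be told apart.

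A signal is the deposited linear intensity of a probe set. A difference is the log2 signal of Mili-/- minus that of Mili+/-, after signals under the 20th percentile of an array (6.3 in Mili+/- and 7 in Mili-/-) were raised to it and each array was centred on its median (38.5 and 41.55). Centring took away 0.11 on the log2 scale by which the deposited median was higher in Mili-/-. Signals of different probe sets are not read as amounts of RNA against each other, because each probe set has its own affinity. Where they are ranked by brightness or summed over a list, the result refers to signal alone. Differences spread more among dim probe sets. When probe sets were split by mean signal into 4 brightness classes of equal size, the central 95% of the second-dimmest class lay between -1.41 and 1.41, and that of the brightest class between -0.60 and 0.34. Probe sets of the same gene disagreed with an SD of 0.31 over 720 genes whose probe sets reached the array median on the brighter array, and with an SD of 0.61 in the second-dimmest class. That SD covers neither animals nor hybridisations.

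The sequences that retinoic acid receptors are known to bind are direct repeats of a short half-site, and the best known of them lies in the promoter of Rarb itself. They are shown as background on the receptors, and a link to the response genes measured below was not tested. In RefSeq promoter windows of build GRCm38.p6, which run from 250 bases before to 50 bases after a gene's start, both strands were searched for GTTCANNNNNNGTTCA, and separately for the single half-site AGGTCA. The repeat occurred in 25 of 32851 windows (0.0761%), among them those of Rarb and of Cyp26a1, whose enzyme degrades retinoic acid. Neither of those windows held AGGTCA, which occurred in 16.3% of all windows. Stra8, which retinoic acid induces at meiotic entry, held AGGTCA at 2 places. Capitals mark the fixed letters of each search, and for the repeat these need not be the whole half-site. Each run is read 5′ to 3′ on the strand of the gene, and in Cyp26a1 the repeat lies on the other strand.
Rarb, chr14:16575501-16575540, minus strand: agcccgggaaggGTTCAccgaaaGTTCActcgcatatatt
Cyp26a1, chr19:37697764-37697803, plus strand: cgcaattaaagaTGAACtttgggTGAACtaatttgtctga
Stra8, chr6:34920742-34920771, plus strand: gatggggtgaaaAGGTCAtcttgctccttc
Stra8, chr6:34920898-34920927, plus strand: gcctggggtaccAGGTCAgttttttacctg
The repeat lies 52 to 37 bases before the start of Rarb and 32 to 17 bases before that of Cyp26a1. The half-sites of Stra8 begin 194 and 38 bases before its start. Of the 8 genes of the set with a window, Rara, Rarg, Rxra and Rxrg also held AGGTCA and Rarb alone held the repeat. These are matches of letters, not measured binding.

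On the arrays, the gene of the set with the widest gap was Rarg, a receptor of spermatogonia, 3.99-fold lower in Mili-/-. That size rests on a Mili-/- signal just above the floor: with a floor at the 40th percentile the gap of Rarg was -0.37 on the log2 scale, smaller than that of Crabp1. Crabp1 was 0.42 lower on the log2 scale, both probe sets of Rxra were 0.28 and 0.38 higher, and Aldh1a1 and Rxrb stood at 0.01 and -0.14 in their bright probe sets. Of the 10 probe sets, 1 was at least 2-fold lower and 0 were at least 2-fold higher, and with no replicate there is no test behind either count. The 1 was Rarg, and the count was 0 with the higher floor or when an array median had to be reached. Over all probe sets with 1 symbol, 1.97% were at least 2-fold lower and 2.17% at least 2-fold higher. At 1.5-fold, the same 1 of 10 was lower and 0 were higher, against 7.52% and 6.82% of all probe sets. These shares depended on the floor and the scaling. At 2-fold, 213 probe sets were lower and 235 higher, which became 24 and 16 under the higher floor, 597 and 656 without a floor, and 157 and 313 with the floor kept but no centring. At 1.5-fold, 815 were lower and 739 higher, which became 342 and 188, 1289 and 1346, and 544 and 983 in the same order. Without centring Crabp2 was also past 1.5-fold higher.

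**Figure D1:**
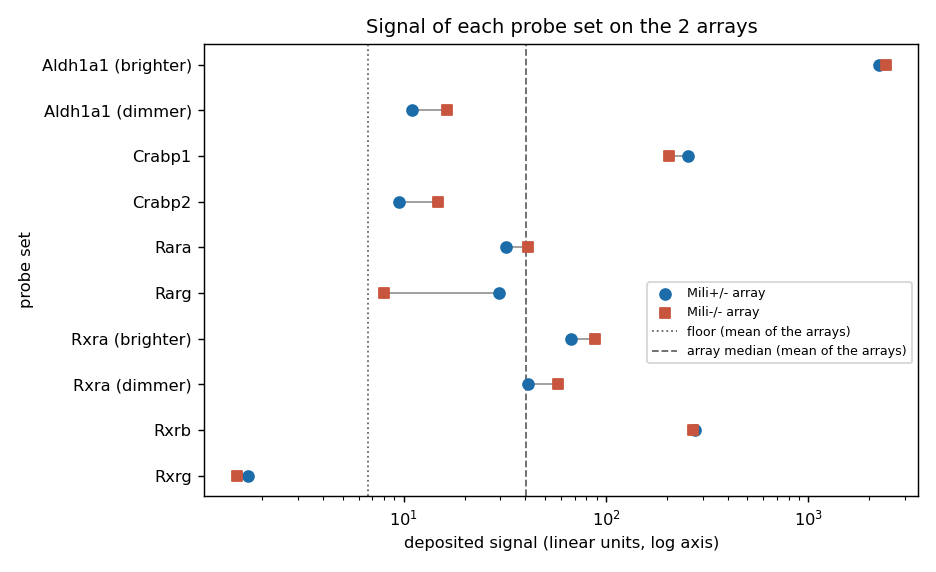
Deposited signal (linear units, log axis) of the 10 probe sets on the Mili+/- array (circles) and the Mili-/- array (squares), 1 array each, with the floor and the array median averaged over both arrays. Rarg has the longest line, from 29.6 to 8.0, and Rxrg lies under the floor on both arrays.

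Aldh1a1, a retinaldehyde dehydrogenase known from Sertoli cells, gave 2226.2 signal units on the Mili+/- array against 2419.5 on the Mili-/- array. The probe set lies in the top 1% of signals on both arrays and its difference was 0.01. A further Aldh1a1 probe set, with no accession in the annotation, read 11.0 and 16.3, a difference of 0.46. Both readings were dim, and a floor at the 40th percentile left a difference of 0.02. The dim and the bright probe set thus stood 0.45 apart. The SD of 0.61 found at low signal is for probe sets that all lie in the second-dimmest class. It does not measure this gap, because the bright one lies in the brightest class. Aldh1a7 is a close paralogue of Aldh1a1, and how far their probes share sequence was not tested. It read 52.6 and 67.2 (0.24).

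Crabp1, a retinoic acid binding protein known from spermatogonia, read 253 in Mili+/- and 204 in Mili-/-, a difference of -0.42. It was lower under all 5 other scalings and floors tried, at -0.42 to -0.27. Its signals lay above every floor tried, so only the scalings could move it. Among the 2708 probe sets of its brightness class, 241 had a lower difference, so it lay inside the central 95%. Crabp2, the other binding protein, went the opposite way at 9.5 and 14.8, a difference of 0.53 between dim signals. With the floor at the 40th percentile (22.6 in Mili+/- and 24.8 in Mili-/-), both of its signals were under the floor. The 2 binding proteins therefore differed in sign here, and only Crabp1 was measured above the array medians.

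Germ cell markers were lower beside Crabp1. Of 10 markers, 9 had a probe set, and their 11 probe sets summed to 3453 signal units in Mili+/- and 2935 in Mili-/-, with none at 0. These sums are of uncentred signals, and Dazl (1342 and 1191) and Uchl1 (930 and 834) weigh most in them. All 8 of the marker probe sets that reached the median on an array were below 0, with a median of -0.53. Over the 5909 probe sets that did so, 67.9% were below 0 and the median was -0.12. Sall4, one of the 8, reached the median on the Mili+/- array alone, and the other 7 had a median of -0.52. Ddx4 stood at -0.12 and turned to 0.02 under quantile normalization and loess. Sycp3, a defining meiotic marker, read 1.1 and 0.6, under the floor on both arrays. Its only probe set carries a suffix, and the reading says only that this probe set was not measured above the floor. The part of the germ cell markers in the difference of Crabp1 was not tested.

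Rarg, the retinoic acid receptor needed in spermatogonia, read 29.6 in Mili+/- and 8.0 in Mili-/-. The Mili-/- signal lay just above the floor of 7, and the difference was -2.00. Only 12 of the 2708 probe sets in its brightness class had a lower difference, and 5.06% of that class were at least 2-fold lower. It was the only one of the 10 probe sets outside the central 95% of its class. Rarg was represented by 1 probe set, which stayed below the median on both arrays, and raising the floor to the 40th percentile left -0.37. The other 4 settings gave -2.06 to -1.89.

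Rara, the receptor that acts in Sertoli cells as well as in germ cells, read 32.0 and 41.3, a difference of 0.26. It stayed just below the median of either array, at percentile 46.4 in Mili+/- and 49.9 in Mili-/-. The 2 measured retinoic acid receptors therefore lay on opposite sides of 0, 2.26 apart on the log2 scale, with both read from dim signals. Rara was higher under every one of the 6 settings, by 0.26 to 0.37. Its signals lay above every floor tried, so a change of floor could not move it. Leaving out centring shifts all probe sets alike.

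**Figure D2:**
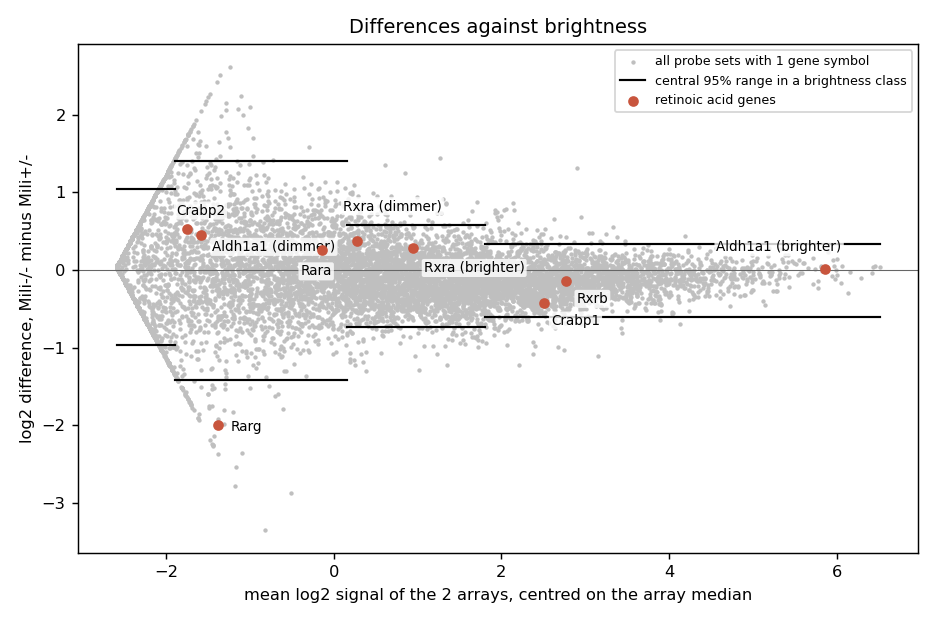
Log2 difference (Mili-/- minus Mili+/-) against mean centred log2 signal for the 9 probe sets above the floor (red) and for all 10833 probe sets with 1 gene symbol (grey), 1 array per genotype. Black lines give the central 95% of differences in each of the 4 brightness classes, and Rarg is the only red point outside them.

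Rxra, a partner of all retinoic acid receptors, was read by 2 probe sets designed on the same accession (X66223), so they share a target and are not independent. The first read 67.3 and 88.1, a difference of 0.28. The second, whose suffix marks a probe set with probes in common with others, read 41.1 and 57.6, a difference of 0.38. Both reached the median on both arrays and both were higher in Mili-/- under every setting, by 0.28 to 0.39 and by 0.38 to 0.49. Their signals lay above every floor tried, so only the scalings could move them. In their class, 325 and 199 of 2708 probe sets had a higher difference, and neither lay outside the central 95%.

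Rxrb, the retinoid X receptor whose loss is known to impair Sertoli cells, read 275 and 269, a difference of -0.14. That is close to the median of its class, -0.13, and the sign turned to 0.01 under quantile normalization. Rxrg, the third retinoid X receptor, read 1.7 and 1.5. Both readings were under the floor, so no difference is given for it, and this says only that its probe set was not measured above the floor. The 3 genes thus ranged from higher (Rxra) through no gap beyond the shift of the bright probe sets (Rxrb) to not measured (Rxrg).

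Markers of Sertoli cells and of adipose tissue were also higher in Mili-/-. Of 12 Sertoli markers, 11 had a probe set. Their 17 probe sets summed to 6394 and 7376 uncentred signal units, in which Clu (2363 and 2636, 0.05) weighs most. Of the 13 that reached the median on an array, 10 were above 0, and the median of the 13 was 0.07. Cldn11 and Wt1, among the other 3, turned above 0 under quantile normalization. Gata4, also among the 3, read 182 and 161 (-0.29) and stayed below 0 under every one of the 6 settings. Of 7 adipose markers, 5 had a probe set. Their 8 probe sets summed to 306 and 567 uncentred signal units. Of the 5 that reached the median on an array, 3 did so on the Mili-/- array alone, where they were high. The 2 that reached it on both arrays were Scd1 (0.91) and Lep (0.56). No probe set of either list was at 0. Their part in the higher readings of Rxra, Rara and Crabp2 was not tested. Of the other marker lists, Leydig (8 probe sets at the median on an array, median -0.11), peritubular (5, -0.11) and macrophage (4, -0.07) lay near the overall median of -0.12. Endothelium (3, 0.45) and erythroid cells (3, 0.77) gave higher medians, but 1 and 2 of these probe sets reached the median on the Mili-/- array alone, where they were high. Those that reached it on both arrays were Cdh5 (0.45) and Eng (-0.25) for endothelium and Hba-a1 (0.28) for erythroid cells. Bright on both arrays of this labelled testis RNA were Nr5a1 of the Leydig list (602 and 883) and Inha of the Sertoli list (710 and 946). The 8 Leydig probe sets were split. The 3 above 0 were all of Nr5a1 (0.44, 0.38 and 0.09). The 5 below 0 were of Cyp17a1 (-0.37), Hsd3b1 (-0.36 and -0.16), Star (-0.23) and Cyp11a1 (-0.06). Cyp11a1 turned to 0.05 without centring, and Star reached the median on the Mili+/- array alone.

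Over the whole set, 6 of the 9 probe sets above the floor were higher and 3 lower in Mili-/-, with a median of 0.26. The median was -0.09 over all 9302 probe sets with 1 symbol that were above the floor on an array. Rxra and Aldh1a1 count among the 9 with 2 probe sets each. With Rxrg put at the floor, the median was 0.03 over the brightest probe set of each gene and 0.04 without suffixed probe sets. Of all 10, 5 reached the median on an array, against 54.5% of all probe sets, and all 5 did so on both arrays. These 5, Aldh1a1, Crabp1, Rxrb and both of Rxra, had a median of 0.01, and 0 of them were past 1.5-fold. Among all probe sets that reached the median, 5.28% were at least 1.5-fold lower and 2.61% higher, and 0.626% and 0.355% were at least 2-fold lower and higher.

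The other genes that make, carry and break down retinoids were measured for 17 of 28 listed. Their 20 probe sets included 0 past 2-fold in either direction, against 1.97% lower and 2.17% higher of all probe sets. At 1.5-fold 5 were lower and 2 higher, against 7.52% and 6.82%. Among the 5 were both probe sets of Adh4 and that of Dhrs4. With the floor at the 40th percentile these moved to -0.001, 0.02 and -0.001, and Ttr, among the 2 higher, to 0.02. Of the 11 that reached the median on an array, 2 were at least 1.5-fold lower (Rbp4 and Adh7) and 1 higher (Rdh11), against 5.28% and 2.61% of all such probe sets. Rdh11 reached it on the Mili-/- array alone, and of the 10 that reached it on both arrays 0 were higher. Adh7 fell short of 1.5-fold without centring (-0.52) and under loess (-0.57). The median of those 11 was -0.10, beside -0.12 for all such probe sets.

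Rbp4, the plasma carrier of retinol, read 170 in Mili+/- and 105 in Mili-/-, a difference of -0.81. It was the only probe set of this list outside the central 95% of its class (-0.73 to 0.58). Stra6, the membrane receptor for Rbp4, read 59.0 and 54.1 (-0.24). Ttr, the plasma partner of Rbp4, read 3.0 and 11.7, from under the floor, and Rbp2, the intestinal retinol carrier, was under the floor on both arrays.

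Enzymes of the first oxidation step, retinol to retinaldehyde, differed among themselves. Adh5, an alcohol dehydrogenase present in most tissues, was bright and close in both probe sets (878 and 998, 466 and 525, differences of 0.07 and 0.06). Adh7 read 62.9 and 43.9 (-0.63), Adh1 read 85.9 and 78.2 (-0.25), and Adh4 was dim and lower in both of its probe sets (-0.79 each). Rdh11, a retinol dehydrogenase, was split: its bright probe set read 256 and 249 (-0.15), and its other one, whose suffix marks an incomplete probe set, read 29.1 and 53.7 (0.77). Dhrs3, which turns retinaldehyde back to retinol, read 28.9 and 32.4 (0.05), Dhrs4 read 23.0 and 14.8 (-0.75), and Rdh5 read 7.2 and 8.0, near the floor.

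For the second step, which makes retinoic acid, Aldh1a2 read 73.0 and 73.6, a difference of -0.10 that turned to 0.01 without centring. Aldh1a3 read 31.5 and 35.5 (0.06). Together with the bright Aldh1a1 probe set at 0.01, these 3 probe sets thus differed by at most 0.10 between the arrays. Cyp26a1, whose promoter repeat is shown above, read 21.4 and 18.4 (-0.33), below the median of either array. With the floor at the 40th percentile both of its signals were under the floor and its difference was 0.02. Fabp5, a fatty acid binding protein that can also carry retinoic acid, read 66.3 and 72.5 (0.02).

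**Figure D3:**
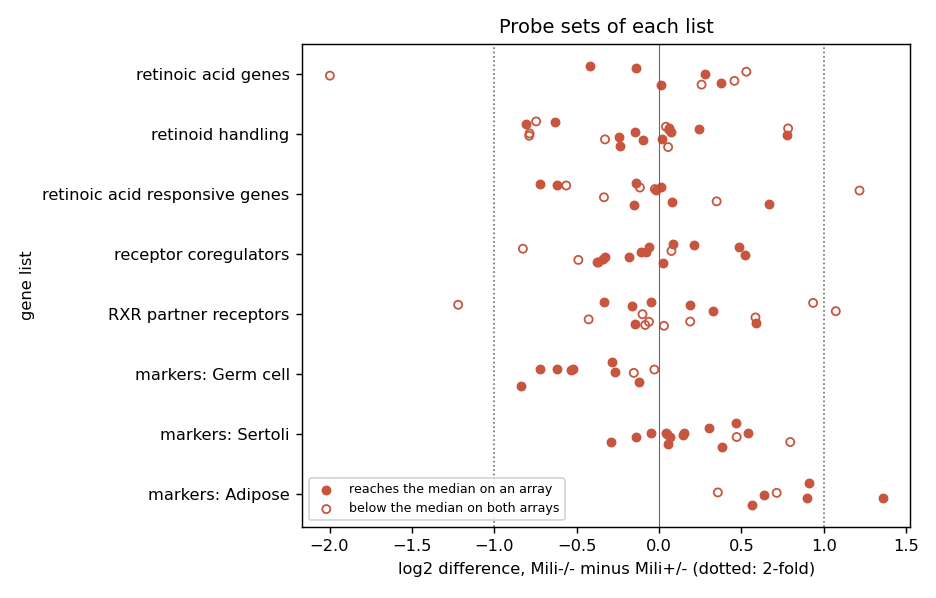
Log2 difference (Mili-/- minus Mili+/-) of each probe set in 8 gene lists; filled points reached the array median on at least 1 array, open points on neither, and probe sets under the floor on both arrays are left out. The retinoid and coregulator lists spread on both sides of 0, while all filled points of the germ cell markers lie below 0 (Ddx4 turns above it under quantile normalization and loess). Of the 5 filled points of the adipose markers, all above 0, 3 are filled through the Mili-/- array alone.

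Genes that respond to retinoic acid in one tissue or another were measured for 16 of 20 listed, with 18 probe sets. Of these, 4 were under the floor on both arrays and 8 reached the median on an array. Those 8 had a median of -0.08, with 2 at least 1.5-fold lower and 1 higher, against 5.28% and 2.61% of all such probe sets. The lower pair was Stra8, at 303 and 198 (-0.72), and Kit, the stem cell factor receptor of differentiating spermatogonia, at 205 and 144 (-0.62). Both lay below the central 95% of the brightest class (-0.60), and both are also in the germ cell marker list above. Neither was past 1.5-fold under quantile normalization (Stra8 -0.56, Kit -0.47) or loess (-0.58, -0.47), and Kit was not without centring (-0.51). The higher one was Tgm2, a transglutaminase, at 26.9 and 46.2 (0.67), which reached the median on the Mili-/- array alone.

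The other response genes at the median on an array lay close to it. Ccnd2, a cyclin of spermatogonia, stood at -0.15, the ephrin gene Efnb1 at -0.14, the corepressor gene Nrip1 at 0.01, Egr1 at 0.08 and Lefty1 at -0.02. Without centring Efnb1 stood at -0.03, and it turned to 0.00 under loess, and Lefty1 to 0.09 without centring. Of the 8, 5 were below 0 and 3 above it, beside 67.9% below 0 among all probe sets that reached the median.

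Receptor coregulators were measured for 13 of 17 listed, with 16 probe sets. The 13 that reached the median on an array had a median of -0.08, beside -0.12 for all such probe sets. Against 5.28% lower and 2.61% higher of all such probe sets, 0 of the 13 were past 1.5-fold. Over all 16, 1 was at least 1.5-fold lower and 0 higher, against 7.52% and 6.82% of all probe sets. The 1 was a dim probe set of Kat2b, which read 11.5 and 6.6 (-0.83), under the floor in Mili-/-. The 4 brightest were the arginine methyltransferase gene Prmt1 (615 and 510.2, -0.38), the corepressor scaffold gene Sin3a (406 and 339, -0.37), the acetyltransferase gene Kat2b (173 and 189.6, 0.02) and the methyltransferase gene Carm1 (152 and 189.9, 0.21). Hdac3, the deacetylase of the corepressor complex that unliganded receptors bind, read 117 and 181 (0.52). It was past 1.5-fold without centring (0.63), under quantile normalization (0.66) and under loess (0.67), and Tbl1x was in a dimmer probe set without centring (0.59). Hdac3 was the only probe set of this list outside the central 95% of its class and was singled out after its value was seen.

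Nuclear receptors that pair with retinoid X receptors were measured for 14 of 15 listed, with 20 probe sets. The 7 that reached the median on an array had a median of -0.05, beside -0.12 for all such probe sets. Of the 7, 0 were at least 1.5-fold lower and 1 higher, against 5.28% and 2.61% of all such probe sets. Over all 20, 1 was at least 1.5-fold lower and 4 higher, against 7.52% and 6.82% of all probe sets. The higher ones other than Nr1i3 had a Mili+/- reading under the floor. The thyroid hormone receptor gene Thra read 498 and 611 (0.19) in its brighter probe set and 91.2 and 89.0 (-0.15) in the other. Nr2f2, a receptor of stromal and Leydig progenitor cells, stood at -0.34, the immediate early gene Nr4a1 at -0.16, and Nr1i3, a xenobiotic receptor, read 52.2 and 84.6 (0.59). Other probe sets of Nr1i3 stood at -0.05 and 0.33.

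**Figure D4:**
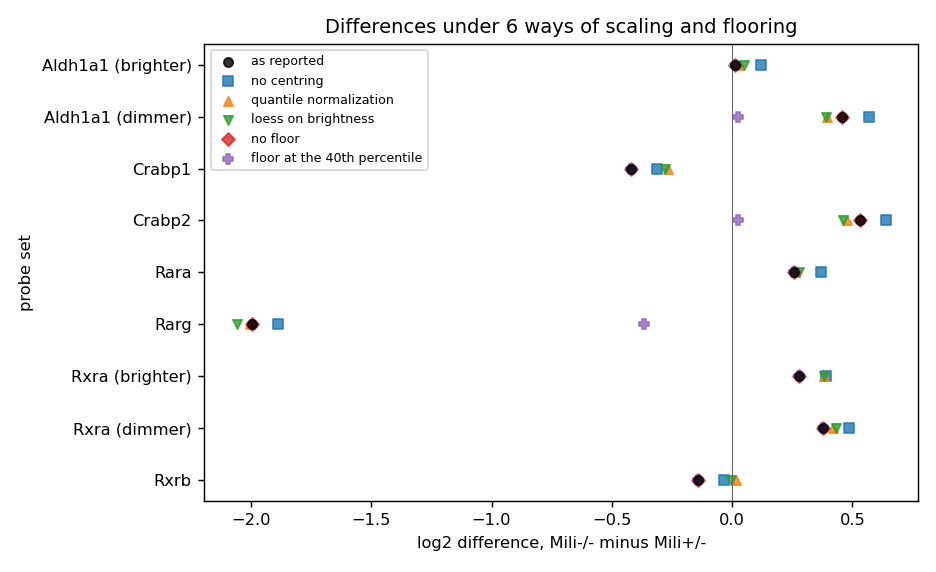
Log2 difference (Mili-/- minus Mili+/-) of the 9 probe sets above the floor under 6 settings, the reported one and 5 others. Of the 9, 8 keep their sign under every setting, while Rxrb crosses 0, and Rarg moves from -2.00 to -0.37 with the higher floor. A change of floor cannot move a probe set whose signals lie above every floor tried.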

How the data were processed

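Polyadenylated testis RNA of day 10 mice was hybridised to 1 array per genotype. The deposited table holds linear signal intensity per probe set, apparently scaled by the authors, since the mean without the lowest and highest 2% was 100.05 on both arrays. The software, background correction and detection calls stay unstated in the labels and the table. Of 12488 probe sets, 66 controls were left out. Of the rest, 10833 had 1 symbol, 396 several and 1193 none. Of the 10833, 10817 were matched by Entrez ID to a RefSeq table of GRCm38.p6 and took their symbol from it, whether or not it changed.

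Floor, centring and brightness classes are as given above. The alternatives were no centring, quantile normalization, loess (span 0.4), no floor, a floor at the 40th percentile, no suffixed probe sets, the brightest probe set per gene, and the median reached on 1 or both arrays. Genes were named by rule: all of the set and of the retinoid list, response genes at the median, and the 4 brightest of the coregulator and partner lists. The genes and lists were chosen with earlier results of these data known. No p-value is given, and the number of arrays limits the precision. Code was tested on simulated data. Python 3.11.15, NumPy 2.4.6, pandas 2.3.3 and statsmodels 0.14.6 were used.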

Additional observations from a re-analysis of the deposited data

How the results depend on the processing

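No paired analysis was possible because each genotype had 1 array. The count of probe sets at least 2-fold lower, 1 of 10, was 0 with the floor at the 40th percentile and when the array median had to be reached on 1 array or on both, and the same held at 1.5-fold lower. The construction of these settings gives that, since Rarg is dim. The count at least 1.5-fold higher, 0, was 1 (Crabp2) without centring. Under the other alternatives these counts stayed at 1, 1 and 0, and none was at least 2-fold higher under any of the 9. With the higher floor Rarg moved by more than the SD of 0.61 that probe sets of a gene showed at low signal, and Crabp2 and the dim Aldh1a1 probe set, both put at the floor, stood at 0.02. Dim signals limit what can be said of Rarg, Crabp2, Rara and Rxrg.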

Other observations

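Of the 20, 18, 16 and 20 probe sets of the retinoid, response, coregulator and partner lists, 3 were past 2-fold. Over all probe sets with 1 symbol, 1.97% were at least 2-fold lower and 2.17% higher. Each of the 3 had a reading under the floor on 1 array, and they are named here because of their values. A second probe set of the vitamin D receptor gene Vdr read 15.1 in Mili+/- and 5.5 in Mili-/- (-1.22), while its other probe set read 29.4 and 29.6 (-0.10). Nr2f1, a partner of retinoid X receptors, read 5.8 and 14.3 (1.07), and a second probe set of Egr1 read 2.5 and 15.8 (1.22), while its brighter one stood at 0.08. The difference of Rarg went from a signal of 29.6, above the 40th percentile of its array, to 8.0, and no second probe set of Rarg was there to set beside it.
Among the marker lists, the carbonic anhydrase gene Car3, in the adipose list, read 36.7 and 101 (1.36, or 2.56-fold higher), well above the floor but at the median on the Mili-/- array alone.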
